A study of Homo sapiens with 12 samples.

Results

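The imprinting control regions examined here were 10 hg38 intervals outside the 11p15 cluster and PEG3, at SNRPN, MEST, GRB10, PEG10, PLAGL1, GNAS (an upstream interval and the exon A/B interval), MEG3, L3MBTL1 and NNAT. They were chosen by gene name from known differentially methylated regions and not by a rule on measured levels. Earlier results of these data were known when they were chosen. Their bounds are approximate: they were set from general knowledge of these regions, at multiples of 500 bp, and were not compared with a published list, so an interval may miss part of its imprinted region or include sequence beside it. Together they span 47.5 kb and held 876 of the 3689712 CpGs measured for 5-methylcytosine (5mC) and 865 of the 3534314 measured for 5-hydroxymethylcytosine (5hmC). The cells were SV-HUC-1, a human urothelial epithelial line immortalised with SV40, cultured for 3 days with DCBQ, a halobenzoquinone by-product of drinking-water disinfection, or with a blank solution as control. Reduced representation bisulfite sequencing (RRBS), which reads CpG-rich fragments, was run with and without an oxidation step that tells 5mC from 5hmC, giving 12 libraries in 4 groups of 3. The deposited tables hold 6 columns per mark, Control1 to Control3 and DCBQ1 to DCBQ3. Nothing in the labels ties the samples of a group to separate cultures, so each p-value here rests on sample-to-sample spread that may be technical only. The depth behind each level is unknown, because the tables hold levels without read counts.

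An imprinting control region carries DNA methylation on the chromosome from 1 parent only, set in the germline and kept through later divisions, and it decides which parental copy of the neighbouring genes is transcribed. Bisulfite reads from both chromosomes are pooled. Where both parental copies are equally present and an interval holds only the imprinted region, a kept imprint reads near the middle of the scale. A region that has lost or gained methylation then reads near an end. Copy number was not examined here and the bounds are approximate, so a level away from the middle does not by itself show a lost or gained imprint. SNRPN, MEST, GRB10, PEG10, PLAGL1, GNAS-AS1, GNAS exon A/B, L3MBTL1 and NNAT are known as methylated on the maternal copy, and MEG3 and the NESP part of GNAS on the paternal copy. In oocytes and early embryos the zinc-finger protein ZFP57, together with TRIM28, protects methylated copies at sites with the core TGCCGC, while TET enzymes oxidise 5mC to 5hmC.

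The promoter sequences that carry the levels described below are shown first, since the level of each capital CG was measured. They are RefSeq windows of the GRCh38.p14 assembly, from 250 bases before to 50 after a transcription start, written 5′ to 3′ on the gene's strand. Capitals mark every CpG present in the 5mC table and lower case all other bases. A total of 19 such windows lay within the intervals, and 14 held at least 3 measured CpGs. PEG10 and NNAT had none in the table. The coordinates are chr15:24954737-24955036 (plus strand) for SNRPN and SNURF, chr7:130491079-130491378 (plus) for the upstream MEST start and chr7:130491835-130492134 (plus) for the downstream MEST start. They are chr7:50782847-50783146 (minus) for GRB10, chr6:144008210-144008509 (minus) for HYMAI and PLAGL1, chr20:58852731-58853030 (plus) for a start within the GNAS upstream interval, chr20:58888930-58889229 (plus) for a GNAS start in the exon A/B interval, and chr14:100825858-100826157 (plus) for MEG3.
SNRPN/SNURF: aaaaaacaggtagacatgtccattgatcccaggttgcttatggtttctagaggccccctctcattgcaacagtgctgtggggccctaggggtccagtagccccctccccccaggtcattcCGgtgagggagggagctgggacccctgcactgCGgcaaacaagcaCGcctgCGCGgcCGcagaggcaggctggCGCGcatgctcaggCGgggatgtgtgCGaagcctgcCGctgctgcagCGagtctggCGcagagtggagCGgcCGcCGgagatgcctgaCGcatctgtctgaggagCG
MEST upstream start: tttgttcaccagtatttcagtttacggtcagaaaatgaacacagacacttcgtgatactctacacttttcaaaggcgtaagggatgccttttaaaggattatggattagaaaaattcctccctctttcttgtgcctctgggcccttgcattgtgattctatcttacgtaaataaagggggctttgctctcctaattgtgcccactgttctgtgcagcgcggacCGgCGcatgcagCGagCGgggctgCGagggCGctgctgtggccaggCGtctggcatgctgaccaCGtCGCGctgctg
MEST downstream start: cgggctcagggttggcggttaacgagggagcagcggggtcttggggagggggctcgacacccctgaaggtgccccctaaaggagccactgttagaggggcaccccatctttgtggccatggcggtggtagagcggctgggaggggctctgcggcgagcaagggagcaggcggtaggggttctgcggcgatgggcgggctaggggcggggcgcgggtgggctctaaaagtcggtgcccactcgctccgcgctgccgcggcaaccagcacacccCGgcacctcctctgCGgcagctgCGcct
GRB10: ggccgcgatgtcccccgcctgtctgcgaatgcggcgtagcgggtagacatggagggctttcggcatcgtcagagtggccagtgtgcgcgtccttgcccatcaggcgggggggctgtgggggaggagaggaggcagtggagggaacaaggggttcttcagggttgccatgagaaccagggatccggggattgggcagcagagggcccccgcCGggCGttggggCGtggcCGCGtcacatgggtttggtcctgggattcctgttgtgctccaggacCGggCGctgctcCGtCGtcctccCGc
HYMAI/PLAGL1: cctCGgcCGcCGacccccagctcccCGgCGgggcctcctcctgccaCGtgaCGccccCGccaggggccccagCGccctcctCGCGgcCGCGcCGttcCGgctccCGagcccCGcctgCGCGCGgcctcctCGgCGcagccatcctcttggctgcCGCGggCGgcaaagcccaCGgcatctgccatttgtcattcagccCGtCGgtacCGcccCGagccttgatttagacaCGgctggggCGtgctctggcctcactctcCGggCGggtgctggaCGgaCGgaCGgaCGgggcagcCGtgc
GNAS upstream interval: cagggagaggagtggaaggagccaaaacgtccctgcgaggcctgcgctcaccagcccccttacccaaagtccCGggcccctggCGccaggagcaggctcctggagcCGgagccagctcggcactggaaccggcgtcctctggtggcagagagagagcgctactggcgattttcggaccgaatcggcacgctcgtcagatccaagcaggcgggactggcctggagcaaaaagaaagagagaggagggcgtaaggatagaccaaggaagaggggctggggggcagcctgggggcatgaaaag
GNAS exon A/B: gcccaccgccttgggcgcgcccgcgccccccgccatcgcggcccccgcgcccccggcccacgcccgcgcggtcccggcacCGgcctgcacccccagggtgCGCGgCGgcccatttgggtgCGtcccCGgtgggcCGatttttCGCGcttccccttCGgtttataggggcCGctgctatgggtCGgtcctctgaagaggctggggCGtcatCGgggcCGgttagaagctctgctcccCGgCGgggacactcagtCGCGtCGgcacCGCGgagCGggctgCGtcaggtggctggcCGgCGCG
MEG3: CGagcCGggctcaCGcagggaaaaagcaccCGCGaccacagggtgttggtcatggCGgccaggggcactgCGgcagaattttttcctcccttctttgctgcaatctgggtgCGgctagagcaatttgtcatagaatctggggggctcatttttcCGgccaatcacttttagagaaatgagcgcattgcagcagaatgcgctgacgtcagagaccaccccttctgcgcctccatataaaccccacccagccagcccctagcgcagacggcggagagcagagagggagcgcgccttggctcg
In the SNRPN/SNURF window 18 of 18 CpGs were measured and in the HYMAI/PLAGL1 window 39 of 39, whereas the downstream MEST window gave only 3 of 25, all at its end. TGCCGC, searched on both strands, occurred in 9 of the 19 windows, against 16.7% of 34943 RefSeq windows of the same length. Some of the 9 overlap: the MEG3 windows share the same match, and 2 MEST windows share matches. The RefSeq windows were not matched for GC or CpG content, and the difference was not tested. A match is a string of letters and not evidence of binding. Of the CpGs inside a match, 6 were measured. At SNRPN, position 24954889 read 66.7%, 20% and 20% 5mC in the controls and 28.6%, 19% and 20% after DCBQ, while position 24954966 read between 90.9% and 100% in every sample. The motif CpGs of MEST, PLAGL1 and MEG3 had means over the 6 samples of 41.7%, 38.0% (for each of a pair) and 72.2%.

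The level of 5mC differed widely from one control region to another and far more than between conditions. Ordered by the control mean, NNAT read 95.3% ± 0.45 (SD, n = 3), SNRPN 84.4% ± 1.07, MEG3 75.3% ± 0.97, MEST 74.0% ± 0.42, GNAS upstream 63.9% ± 1.40 and GRB10 46.6% ± 4.73 (each SD, n = 3). Below these, L3MBTL1 read 31.8% ± 4.61, PLAGL1 30.6% ± 3.98, GNAS exon A/B 26.2% ± 0.70 and PEG10 12.4% ± 1.45 (each SD, n = 3). Over the 6 samples, MEG3 overlapped MEST, L3MBTL1 overlapped PLAGL1 and PLAGL1 overlapped GNAS exon A/B. The other neighbours in this order did not overlap in any sample. Over the CpGs measured, SV-HUC-1 cells therefore read close to full 5mC at NNAT, near the middle at GRB10 and low at PEG10, whichever solution they had received. The PEG10 mean rests mostly on CpGs around the SGCE and PEG10 starts. There the 16 CpGs from 94655500 read 2.89% and the 6 from 94656000 read 0.99% in controls. The only other 500 bp stretch of PEG10 with at least 5 CpGs, from 94658500, read 39.0%.

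**Figure D1:**
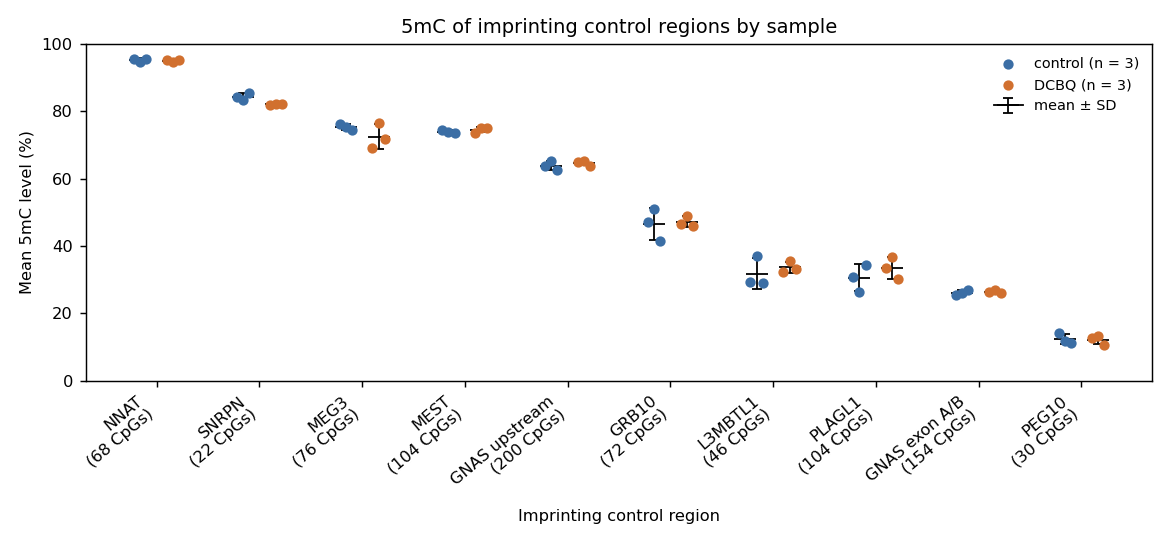
Mean 5mC level in percent of each imprinting control region (vertical axis) by region (horizontal axis, ordered by the control mean), with 1 point per sample, blue for control and orange for DCBQ, and black bars for mean ± SD (n = 3). Regions range from NNAT at 95.3% to PEG10 at 12.4% in controls, and the blue and orange points of a region overlap everywhere except SNRPN.

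Levels in the middle of the scale were more frequent in the control regions than in the table as a whole. With 35% to 65% taken as intermediate, between 27.6% and 32.3% of the regions' CpGs were intermediate in a sample, against 12.4% to 12.7% of all CpGs. The difference was 18.3 percentage points ± 1.80 (SD, n = 6), higher in 6 of 6 samples, with a two-sided exact sign-flip permutation p of 0.03125, the smallest that 6 samples allow. All 6 samples are of the SV-HUC-1 line with both conditions pooled, so this p measures repeatability between samples, not spread between regions. Since the regions were chosen as known differentially methylated ones, more middle levels were likely in advance. Against CpGs of the densest quartile of 1 kb tiles, which resemble CpG islands more closely, the difference was 24.4 points. By the mean over samples, 290 of the 876 CpGs were intermediate, 276 low and 310 high, so most CpGs of the intervals lay outside the middle band. The intermediate share was uneven, with 91.7% at GRB10 but 9.09% at SNRPN and 5.88% at NNAT. Those last values lay under the 12.6% of all CpGs, and the other regions lay above it. Neighbouring CpGs often come from the same reads and are not independent of each other.

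The regions reached their means in different ways. GRB10, a growth-restraining adaptor of insulin receptor signalling, had 66 of 72 CpGs in the middle band, with an SD between CpGs of 7.34 points. PLAGL1, which encodes a zinc-finger transcription factor, had 45 intermediate and 58 low CpGs of 104, and its levels were also tightly grouped (SD between CpGs 8.43 points). L3MBTL1, a Polycomb-family chromatin protein, had 35 low CpGs of 46 (SD 7.96 points), whereas GNAS exon A/B had 123 low CpGs of 154 and NNAT, a neuronal proteolipid gene, had 64 high CpGs of 68. SNRPN had 18 high CpGs of 22 and PEG10, a retrotransposon-derived gene, 25 low CpGs of 30 with no high one.

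MEST, which encodes a hydrolase-like membrane protein, varied in level along its interval. Its 500 bp stretch from position 130490500 read 92.2% ± 1.31 (SD, n = 3) in controls, and the 24 CpGs in the stretch from 130492000, across the printed downstream start, read 36.4% ± 2.58 (SD, n = 3). The 70 high CpGs of MEST therefore lay mostly outside the stretch at the downstream start, where the 31 intermediate ones were concentrated. GNAS upstream had 75 intermediate and 104 high CpGs of 200, with single CpGs from 5.62% to 99.2%. MEG3, a non-coding RNA, had 24 intermediate and 48 high CpGs of 76, reading 88.8% ± 0.79 (SD, n = 3) in controls from 100824000 and 50.1% ± 4.70 (SD, n = 3) from 100826500. In PEG10 the 16 CpGs from 94655500 read 2.89% and the 5 CpGs from 94658500 read 39.0% in controls. GNAS exon A/B read 28.1% to 34.5% in its first 4 stretches and 9.41% ± 1.54 (SD, n = 3) in the last one.

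**Figure D2:**
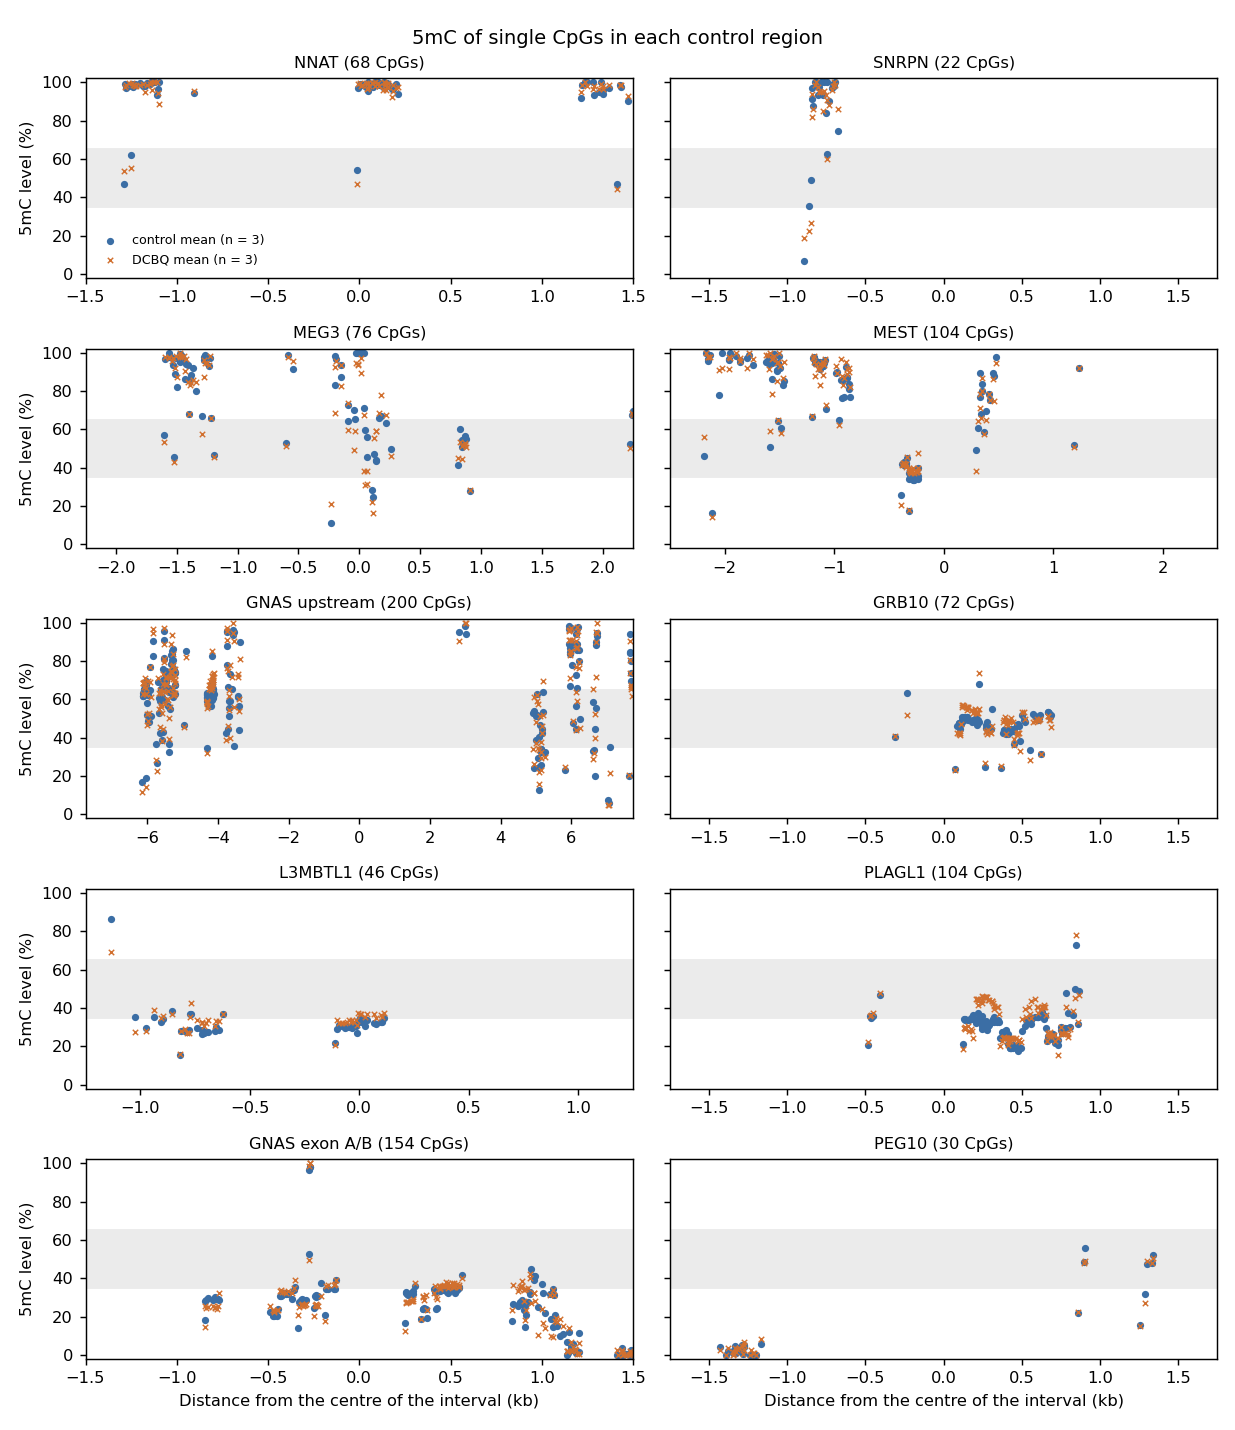
5mC level in percent of single CpGs (vertical axis) against the distance in kb from the centre of each interval (horizontal axis), with blue dots for the mean of 3 controls, orange crosses for the mean of 3 DCBQ samples and a grey band from 35% to 65%. GRB10 lies almost wholly in the band with 66 of 72 CpGs, NNAT above it with 64 of 68, and MEST holds a stretch of 24 CpGs near 36.4% between high stretches.

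**Figure D3:**
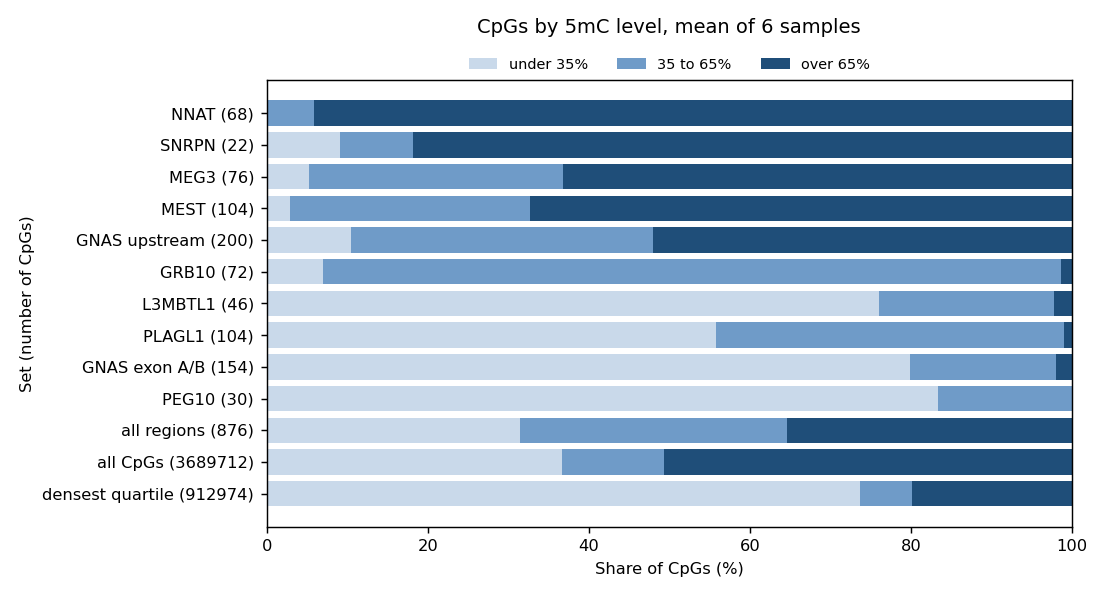
Share of CpGs in percent (horizontal axis) with a mean 5mC over the 6 samples under 35%, from 35% to 65% or over 65%, for each region, for all regions, for the whole table and for its densest quartile (vertical axis, with the number of CpGs). The middle class takes 33.1% of the regions' CpGs, 12.6% of all CpGs and 6.43% of the densest quartile.

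The sequence on either side is given as values, without a test against the regions. Within 10 kb of GRB10, 138 CpGs read 1.07% ± 0.06 (SD, n = 3) in controls, against 46.6% inside. Around NNAT 89 CpGs read 21.9% ± 0.34 and around GNAS exon A/B 174 read 13.0% ± 0.07 (each SD, n = 3), both under their intervals. Around MEST 29 CpGs read 91.5% and around PEG10 13 read 86.4%, both above theirs. The flanks of L3MBTL1 (72 CpGs, 32.7%) and MEG3 (81 CpGs, 70.7%) read close to the regions. SNRPN had only 6 CpGs and PLAGL1 3 CpGs outside the interval.

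The average 5mC of the control regions differed between conditions by less than the spread between samples. The mean over the 10 regions was 54.1%, 54.5% and 53.5% in Control1 to Control3 and 53.6%, 55.5% and 53.5% in DCBQ1 to DCBQ3. The difference was 0.155 percentage points (SE 0.733), with a two-sided exact permutation p of 0.9, where 3 samples against 3 cannot give less than 0.1. Without control replicate 3 it was -0.127 and without DCBQ replicate 2 it was -0.509, so even its sign rested on single samples. Over all CpGs of the table the groups did not overlap, and the DCBQ samples read lower by 0.416 points (difference -0.416, SE 0.105, exact permutation p = 0.1). A separate test of the regions against the table was not run. Region by region, 4 read lower and 6 higher after DCBQ, and in 1 of 10 the groups did not overlap, where 11.4% of all 500 bp tiles had groups that did not overlap.

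SNRPN, the promoter region of the Prader-Willi domain that drives a small nuclear ribonucleoprotein gene and the long SNHG14 transcript, was the region whose groups did not overlap. All of its 22 measured CpGs lay between 24954857 and 24955074 of the interval chr15:24954000-24957500, so the rest of that interval was not read. They read 84.2%, 83.4% and 85.5% 5mC in the controls and 81.9%, 82.3% and 82.3% after DCBQ. Every DCBQ sample lay below every control, by 2.21 points on average (difference -2.21, SE 0.630, exact permutation p = 0.1, Benjamini-Hochberg adjusted p = 0.667 over 20 region tests). In the printed SNRPN/SNURF promoter the levels were 82.8%, 81.3% and 83.4% against 79.2%, 78.6% and 79.8%. The same CpGs read 5.37%, 3.61% and 4.33% 5hmC in the controls and 6.11%, 9.22% and 5.82% after DCBQ, again without overlap (difference 2.61, SE 1.20, exact permutation p = 0.1, adjusted p = 0.667). Without DCBQ replicate 2, which read highest, the difference was 1.53. Adding both marks gave 88.8% ± 1.58 in controls and 89.2% ± 1.95 after DCBQ (SD, n = 3), which overlapped. By 500 bp stretch, the 5hmC groups overlapped in both. From 24954500, 5hmC read 5.29%, 3.15% and 6.35% in controls and 7.65%, 11.5% and 6.00% after DCBQ. From 24955000 (8 CpGs) it read 5.49%, 4.43% and 0.81% against 3.41%, 5.21% and 5.50%. There 5mC overlapped too (difference -0.471), but from 24954500 it did not. In the printed promoter the 5hmC groups did not overlap, with means of 5.32% and 8.43%.

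MEG3, the non-coding RNA of the DLK1 domain on chromosome 14, had the widest spread among DCBQ samples of the 10 regions in 5mC, with an SD of 3.73 points (n = 3). Its 76 CpGs in chr14:100823500-100828000, which runs from upstream of the gene into its start, read 76.3%, 75.2% and 74.4% 5mC in controls and 69.1%, 76.5% and 71.8% after DCBQ. DCBQ1 and DCBQ3 lay under every control and DCBQ2 above every control, for a difference of -2.88 (SE 2.22, adjusted exact permutation p = 0.714, unadjusted p = 0.4). It was -1.21 without DCBQ replicate 1 and -4.89 without DCBQ replicate 2. The 5hmC levels were 3.24%, 5.95% and 4.92% in controls and 10.3%, 4.53% and 7.61% after DCBQ, with DCBQ1 and DCBQ3 above every control. The 2 marks added together read 80.0% ± 1.01 in controls and 79.9% ± 0.94 after DCBQ (SD, n = 3). The labels leave out how bisulfite and oxidative libraries were combined, so an error in one library may enter both marks, and its part in these opposite readings was not tested.

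Among the MEG3 stretches of 500 bp, that of 28 CpGs from 100825500, upstream of the start, had the largest difference in both marks. There 5mC was 73.5%, 69.7% and 66.5% in controls and 56.6%, 73.9% and 61.7% after DCBQ (limma adjusted p = 0.900). The differences were not confined to it: from 100826500 they were -2.90 points in 5mC and 4.73 in 5hmC, with overlap. CpG 100825787 read 100% 5mC in every control and 40%, 88.9% and 72.7% after DCBQ, with 5hmC of 0% in every control and 42.9%, 0% and 18.2% after DCBQ. CpG 100825801 read 0%, 40% and 7.69% 5hmC in controls and 42.9%, 33.3% and 63.6% after DCBQ, and CpG 100825743 read 0% in controls and 14.3%, 0% and 18.2% after DCBQ. The MEG3 promoter printed above read 54.7%, 46.7% and 42.7% 5mC in controls and 42.7%, 65.1% and 49.4% after DCBQ, with overlap. Its other 2 RefSeq starts, whose windows share most of these CpGs, read 54.2% and 55.5% in controls and 61.9% and 62.9% after DCBQ. In the 10 kb flanks of MEG3 the groups did not overlap in either mark. There 5mC was 71.1%, 69.2% and 71.7% against 67.4%, 66.7% and 65.7%, and 5hmC 5.31%, 4.85% and 3.47% against 6.49%, 8.08% and 8.13% (exact permutation p = 0.1 each, not adjusted). Among the flanks of all 10 regions, the groups were otherwise apart only at L3MBTL1 in 5hmC. Of all 500 bp tiles, which are shorter than the flanks, 11.4% had groups apart in 5mC and 9.87% in 5hmC.

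PLAGL1 was the other region with groups apart in 5hmC. Its interval chr6:144006000-144009500 covers the shared start of PLAGL1 and the non-coding HYMAI, and 104 CpGs read 2.78%, 4.22% and 3.33% 5hmC in controls and 7.45%, 5.63% and 6.06% after DCBQ. Every DCBQ sample exceeded every control, by 2.93 points on average (SE 0.693, exact permutation p = 0.1, adjusted p = 0.667). The 5mC of the same CpGs was 30.8%, 26.5% and 34.5% in controls and 33.5%, 36.9% and 30.2% after DCBQ, with overlap (difference 2.94, SE 3.00, exact permutation p = 0.5). That 5mC difference was 0.90 without control replicate 2, 1.26 without DCBQ replicate 2, 4.88 without control replicate 3 and 4.61 without DCBQ replicate 3. The 39 CpGs of the printed HYMAI/PLAGL1 promoter read 33.4%, 19.3% and 31.9% 5mC against 36.2%, 28.8% and 29.2%, so the control samples alone differed by more than the group means. Their 5hmC overlapped, at 1.14%, 5.16% and 3.86% in controls and 5.50%, 8.34% and 4.69% after DCBQ (exact permutation p = 0.2). By 500 bp stretch, the 5hmC groups were apart from 144007500 and from 144008000 and overlapped elsewhere. The stretch from 144007000 (5 CpGs) read lower after DCBQ, at 8.27% and 4.61%. Both marks added gave 34.0% ± 3.55 in controls and 39.9% ± 3.27 after DCBQ (SD, n = 3, exact permutation p = 0.2).

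**Figure D4:**
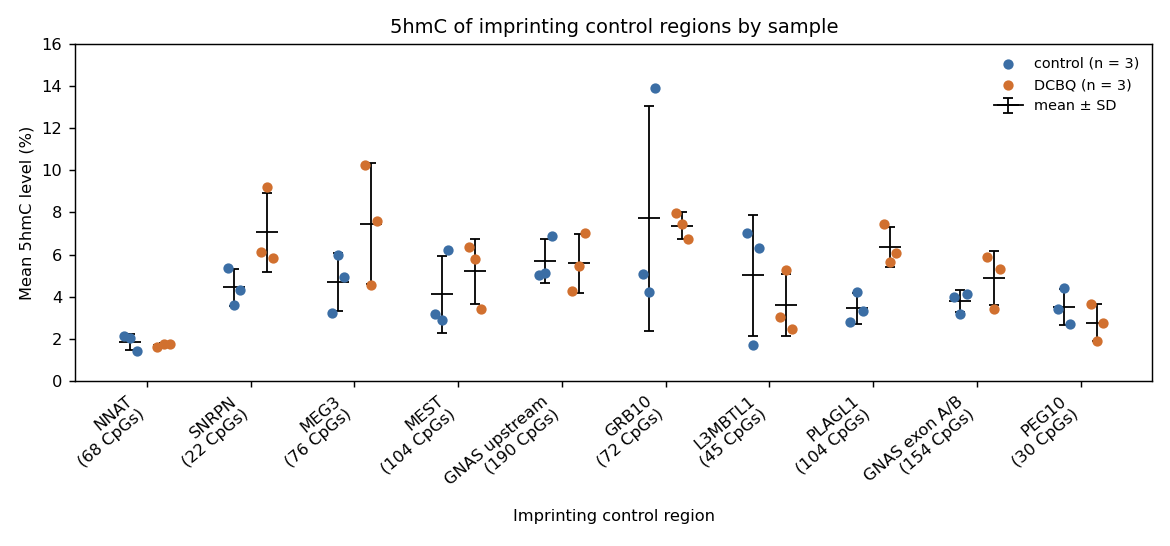
Mean 5hmC level in percent of each imprinting control region (vertical axis) by region (horizontal axis, in the order of control 5mC), with 1 point per sample, blue for control and orange for DCBQ, and black bars for mean ± SD (n = 3). The groups lie apart at SNRPN and PLAGL1 only, and 1 control point of GRB10 stands at 13.9%.

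The mean 5hmC over the 10 regions was 4.13%, 3.74% and 5.42% in controls and 5.66%, 5.04% and 4.90% after DCBQ (difference 0.772, SE 0.559, exact permutation p = 0.3). The difference was 0.427 without control replicate 2 and 1.27 without control replicate 3. In 5 regions it read higher and in 5 lower after DCBQ, and groups did not overlap in 2 of 10, where 9.87% of all 500 bp tiles had groups apart. Control levels ran from 1.86% at NNAT to 7.72% at GRB10. CpGs with 15% to 35% 5mC read 4.85% ± 0.76 5hmC in the control samples (219 CpGs of the regions) against 5.94% ± 0.17 over all such CpGs of the table (SD, n = 3). For intermediate CpGs the values were 5.94% ± 2.08 and 6.78% ± 0.39, and for high ones 3.41% ± 0.45 and 3.43% ± 0.03 (SD, n = 3). In the class from 15% to 35% every control lay below the value of all such CpGs in the same sample, while after DCBQ the means were 6.26% ± 0.60 and 5.98% ± 0.21 (SD, n = 3) and overlapped. In the intermediate and high classes the ranges of the controls overlapped. In the whole class under 35%, which holds the one from 15% to 35%, the regions read 4.28% ± 0.57 in controls against 2.13% ± 0.05 for all such CpGs (SD, n = 3), higher in every sample, and the 5mC of these CpGs was also higher, with a mean of 22.7% against 6.30%.

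GRB10 (chr7:50780500-50784000) read 47.1%, 51.0% and 41.6% 5mC in controls and 46.5%, 49.1% and 46.1% after DCBQ, with overlap. Its 5hmC was 5.07%, 4.21% and 13.9% in controls and 7.98%, 7.43% and 6.73% after DCBQ. Control3, lowest in 5mC and highest in 5hmC, set both the control spread and the sign: without control replicate 3 the 5hmC difference of GRB10 was 2.74 points, and with it -0.343 (SE 3.11). Both marks added read 52.2%, 55.2% and 55.4% in controls and 54.4%, 56.5% and 52.8% after DCBQ, so Control3 stood out only in the separate marks. An error in one library may enter both marks here too, which was not tested. The 10 measured CpGs of the GRB10 promoter read 49.7% ± 1.89 in controls and 47.7% ± 2.39 after DCBQ (SD, n = 3).

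MEST (chr7:130490000-130495000) read 74.4%, 73.9% and 73.6% 5mC in controls and 73.6%, 75.1% and 75.1% after DCBQ, a difference of 0.619 points (SE 0.536), which was 1.10 without DCBQ replicate 1, 0.384 without DCBQ replicate 2 and 0.377 without DCBQ replicate 3. Its upstream start read 92.4% ± 1.08 in controls and 89.9% ± 3.08 after DCBQ, its downstream start 36.5% ± 7.60 and 34.6% ± 3.70, and the MESTIT1 antisense start 87.4% ± 1.79 and 87.9% ± 1.69 (each SD, n = 3). CpG 130491634 read 77.4%, 83.8% and 81.5% in controls and 98.3%, 90.0% and 86.9% after DCBQ. The first stretch of MEST, from 130490000, read 2.26%, 3.09% and 3.63% 5hmC against 1.38%, 0.94% and 1.56%, without overlap (limma adjusted p = 0.975).

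GNAS encodes the stimulatory G-protein alpha subunit and, from starts further upstream, the NESP and extra-large forms, with the antisense GNAS-AS1 between them. The upstream interval, chr20:58838000-58853500, read 63.7%, 65.4% and 62.6% 5mC in controls and 64.9%, 65.3% and 63.9% after DCBQ. Split midway between the GNAS start and the upper end of GNAS-AS1, its NESP part (127 CpGs) read 64.6% ± 1.85 in controls and 65.9% ± 0.53 after DCBQ, and its GNAS-AS1 part (73 CpGs) 62.6% ± 0.62 and 62.6% ± 1.15 (each SD, n = 3). These parts are methylated on opposite parental copies and had similar means, but the SD between CpGs was 15.1 points in the NESP part and 27.2 in the other. Exon A/B, chr20:58888000-58891000, lies at an alternative first exon of GNAS and read 25.5%, 26.2% and 26.9% in controls and 26.3%, 26.9% and 26.1% after DCBQ, the groups overlapping.

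Single CpGs of GNAS gave the smallest p-values in the regions. CpG 58890480 in exon A/B read 17.2%, 26.3% and 31.8% 5mC in controls and 13.3%, 7.7% and 10.5% after DCBQ, all lower (limma adjusted p = 0.928). CpG 58852837, the last capital CG of the printed GNAS upstream window, read 33.3%, 34.0% and 37.8% 5mC against 17.5%, 24.5% and 23.1%, and 0% 5hmC in every control against 22.2%, 12% and 1.08% after DCBQ. The 3 CpGs of that window together read 14.3%, 17.8% and 16.6% 5mC in controls and 7.73%, 11.8% and 12.3% after DCBQ, and 0%, 0% and 0.81% 5hmC against 12.1%, 7.92% and 4.15%. Further upstream in the same interval the signs were the other way round. CpG 58852440 read 50%, 57.9% and 59.1% 5mC in controls and 75%, 70.6% and 69.2% after DCBQ, and the stretch from 58852000 read 14.9%, 8.19% and 13.5% 5hmC in controls and 3.79%, 5.78% and 1.90% after DCBQ (limma adjusted p = 0.975). Over the 190 CpGs of the whole interval, the mean 5hmC was 5.69% ± 1.05 in controls and 5.58% ± 1.39 after DCBQ (SD, n = 3).

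The remaining GNAS starts overlapped between groups. The most upstream GNAS window, at chr20:58839498-58839797, read 56.6% ± 0.80 5mC in controls and 56.9% ± 2.29 after DCBQ, and the next one, at chr20:58841370-58841669, 61.5% ± 0.79 and 65.5% ± 5.74 (each SD, n = 3). The printed exon A/B window read 33.5% ± 0.44 and 34.2% ± 4.29, and the start of the non-coding LOC101927932 on the other strand 21.6% ± 1.42 and 23.5% ± 2.72 (each SD, n = 3).

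The other 3 regions overlapped between groups in both marks. NNAT (chr20:37520000-37523000), within the span of BLCAP, read 95.6%, 94.8% and 95.5% 5mC in controls and 95.3%, 94.7% and 95.2% after DCBQ. L3MBTL1 (chr20:43513500-43516000) read 29.3%, 37.1% and 29.0% against 32.4%, 35.4% and 33.3%, and its 5hmC read 7.01%, 1.70% and 6.32% against 3.04%, 5.27% and 2.47%. PEG10 (chr7:94655500-94659000), whose interval also holds the start of SGCE, read 14.1%, 11.96% and 11.3% against 12.7%, 13.2% and 10.7%. In the L3MBTL1 flanks 5hmC read 2.80% ± 0.32 in controls and 2.00% ± 0.51 after DCBQ (SD, n = 3), without overlap.

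No stretch or CpG of the regions passed the test across the genome. Of 42 tiles of 500 bp with at least 5 CpGs in the regions, limma called 0 for 5mC and 0 for 5hmC at an adjusted p of 0.05, and it called 0% of all 235808 and 226294 tiles. At an unadjusted p under 0.05 it counted 1 tile for 5mC, the SNRPN stretch from 24954500, where the table had 6.12%, and 3 tiles for 5hmC, at GNAS, MEST and PLAGL1, where the table had 4.8%. For 5mC, 22 of the 42 tiles read lower after DCBQ, where the table had 59.2%. Groups did not overlap in 2 of the 42 tiles for 5mC, where the table had 11.4%, and in 6 of 42 for 5hmC, where it had 9.87%. The median SD within groups over the regions' tiles was 3.40 points for 5mC at all levels of 5mC, against 1.97 over all tiles and 3.38 over the 30332 tiles with 35% to 65% 5mC.

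The tile with the smallest p in each of the other regions gave an adjusted limma p from 0.837 to 0.965 for 5mC. In controls and after DCBQ, 5mC read 82.8% and 87.5% in the MEST tile from 130491500, 63.5% and 69.6% in the GNAS tile from 58841500, and 28.2% and 32.4% in the PLAGL1 tile from 144008000. It read 30.8% and 33.9% at L3MBTL1 from 43514500, 30.6% and 33.1% at GNAS exon A/B from 58890000, and 49.1% and 51.6% at GRB10 from 50782000. The PEG10 tile from 94656000 read 0.99% and 2.24%, and the NNAT tile from 37520000 read 94.6% and 93.98%. For 5hmC, the PLAGL1 tile from 144008000 read 1.95%, 3.82% and 2.82% in controls and 7.19%, 6.53% and 4.77% after DCBQ, without overlap. Group means for 5hmC were 4.93% and 8.39% at SNRPN from 24954500, 5.87% and 2.11% at L3MBTL1 from 43514000, 1.90% and 3.56% at MEG3 from 100824500, and 9.21% and 7.18% at GRB10 from 50782000. They were 2.17% and 3.73% at GNAS exon A/B from 58889500, 1.09% and 1.55% at NNAT from 37521500, and 0.79% and 0.22% at PEG10 from 94656000. At GRB10 the sign turned without control replicate 3, to 1.18 points from -2.03, and at NNAT in 5mC it turned without DCBQ replicate 2, to 0.11 points from -0.59.

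Of the 863 CpGs of the regions that varied in 5mC and 843 that varied in 5hmC, limma called 0 in each mark, where it called 0 CpGs (0%) and 1 CpG (3.17e-05%) in the whole table. At an unadjusted p under 0.05 with a difference of at least 10 points, 11 CpGs were counted for 5mC, 5 of them higher after DCBQ, where the table had 2.68%, and 7 for 5hmC, 6 of them higher, where the table had 1.65%. CpG 24955002, in the SNRPN promoter, was among the latter, with 0% 5hmC in every control and 14.3%, 22.2% and 0% after DCBQ. As shares of the CpGs tested, both counts lie below those of the whole table.

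Promoters of imprinted genes in these domains and of genes that keep imprints were read from windows of 1500 bp before to 500 bp after each RefSeq start. Of 36 imprinted genes 27 had a window with at least 5 CpGs, in 47 windows, and limma called 0 in either mark, as it called 0% of all 21731 windows for 5mC and 0% of those for 5hmC. For 5mC, 23 windows read lower and 24 higher, with 3 at an unadjusted p under 0.05, where the table had 59.4% lower and 6.77% under 0.05. Those 3 all read lower: a PHACTR2 window of 5 CpGs, next to PLAGL1 and an actin regulator, at 86.7% ± 0.53 in controls and 84.0% ± 0.13 after DCBQ (SD, n = 3, limma adjusted p = 0.614), and 2 SNRPN windows that hold the same 22 CpGs (adjusted p = 0.735). The other PHACTR2 windows read 2.81% and 2.48% (72 CpGs, limma adjusted p = 0.917) and 1.45% and 1.54% (29 CpGs, limma adjusted p = 0.978). For 5hmC 20 windows read lower and 27 higher, where the table had 46.9% lower, and 3 had an unadjusted p under 0.05, where the table had 4.87%. The smallest p-values were at HYMAI and PLAGL1 with 3.20% ± 0.98 against 6.47% ± 0.80, at RTL1, a retrotransposon-derived gene of the MEG3 domain, with 8.93% ± 1.99 against 3.99% ± 1.04, and at MKRN3, a ubiquitin ligase gene of the SNRPN domain, with 3.26% ± 2.18 against 7.50% ± 1.03 (SD, n = 3, limma adjusted p = 0.967 for each).

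Among 33 genes for imprint maintenance, including ZFP57, TRIM28, DNMT1, UHRF1, TET enzymes and NLRP genes, 26 had windows, 40 in all, of which limma called 0. For 5mC 24 read lower and 16 higher, with 2 at an unadjusted p under 0.05, where the table had 59.4% lower and 6.77% under 0.05. For 5hmC 15 read lower and 25 higher, with 2 under 0.05, where the table had 46.9% lower and 4.87% under 0.05. NLRP2, a maternal-effect gene whose loss is linked to imprinting disorders, read 72.6%, 70.2% and 72.5% in controls and 62.7%, 64.4% and 61.6% after DCBQ. The groups were 8.89 points apart (difference -8.89, SE 1.21, limma adjusted p = 0.377). The NLRP2 window at chr19:54964874-54966874 read 75.9%, 77.3% and 72.8% 5mC in controls and 68.9%, 78.7% and 72.3% after DCBQ. There the groups overlapped (difference -2.04, SE 2.63, limma adjusted p = 0.940). For 5hmC, a second NLRP2 window read 2.69% ± 0.38 in controls and 8.98% ± 2.75 after DCBQ (SD, n = 3, limma adjusted p = 0.967). TET3, a 5mC oxidase, read 34.8% ± 0.67 5mC and 32.02% ± 0.80 (SD, n = 3, limma adjusted p = 0.624), and TLE6, another maternal-effect gene, 1.29% ± 0.56 and 2.14% ± 0.63. HELLS, a chromatin remodeller needed for DNA methylation, had the next smallest p for 5hmC, with 1.33% ± 0.47 and 2.29% ± 0.33, and OOEP read 2.72% ± 0.47 and 1.69% ± 0.41 (SD, n = 3).

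The control regions left out of the set, on 11p15 and at PEG3, were read the same way. H19 had 57.0% ± 3.38 5mC in controls and 55.8% ± 3.69 after DCBQ, KCNQ1OT1 46.9% ± 2.08 and 43.0% ± 2.52, and PEG3 43.5% ± 1.72 and 37.9% ± 6.36 (SD, n = 3). Their 5hmC was higher in every DCBQ sample than in every control at KCNQ1OT1, with 4.88% ± 1.92 and 8.23% ± 0.50, and at PEG3, with 3.95% ± 1.498 and 10.1% ± 1.61 (SD, n = 3, exact permutation p = 0.1 each). At H19 the 5hmC groups overlapped, with 6.22% ± 2.12 and 7.19% ± 2.02 (SD, n = 3, exact permutation p = 0.6). Of all 500 bp tiles, 9.87% had 5hmC groups apart. SNRPN and PLAGL1 showed 5hmC groups apart by 2.61 and 2.93 points, against 3.35 and 6.11 points at KCNQ1OT1 and PEG3, and differences between regions were not tested.

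The cell type could be checked only in part from methylation. Of 12 urothelial and epithelial marker genes, 3 had promoter windows (GATA3, KRT5 and UPK1A), 7 windows in all, with control 5mC from 0.77% to 79.1%. Of 6 leukocyte markers, CD3D and LCK had windows, at 84.1% and 92.5% in controls, and of 5 fibroblast markers 0 had one. CD3D read 84.1% ± 1.48 in controls and 77.4% ± 3.21 after DCBQ (SD, n = 3, limma adjusted p = 0.569), and its part in the readings of the control regions was not tested. The files hold no expression values, so marker expression was not analysed here.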

How the data were processed

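The members, gene lists and tests were chosen with earlier results of these data known. The deposited tables give, per the file headers and values, 5mC and 5hmC as a fraction per CpG, printed here as percent. Per the submitters' processing notes the authors used hg38, cutadapt, Trim Galore and BSMAP 2.90. The roles of these tools and the way the authors combined RRBS and oxRRBS libraries are not stated in the labels or headers. Per the file names, a minimum of 5 reads applied and strands were merged.

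Intervals had bounds at multiples of 500 bp. A region's level is the unweighted mean over its CpGs, compared by a two-sided exact permutation test (scipy 1.17.1), with Benjamini-Hochberg adjustment over 20 tests. All 500 bp tiles with at least 5 CpGs, all promoter windows and all varying CpGs were tested with limma 3.58.1 (lmFit, eBayes with trend, R 4.3.3) at an adjusted p of 0.05, for single CpGs also with a difference of at least 10 points. The tile test was also run on simulated data, with shifts larger than any tile difference named here. That run cannot show whether differences of the size reported would be called. Gene and promoter positions came from RefSeq tables of GRCh38.p14, the hg38 assembly; exons and introns were not analysed here. Text names the tile with the smallest p per region, the 5 CpGs with the smallest p and at least 10 points per mark, promoters with at least 3 CpGs and 3 genes per list. Columns carry only condition and number, so each was taken as a replicate of its condition. Same-numbered samples did not deviate together across tiles.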

Additional observations from a re-analysis of the deposited data

How the results depend on the processing

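The counts called stayed at 0 for tiles and CpGs of both marks and for 5mC list promoters with eBayes without trend and with each sample left out. They also stayed at 0 for tiles with logit levels, 3 or 10 CpGs per tile or 1 kb tiles, and for CpGs with no minimum difference. No alternative was run for 5hmC list promoters. The mean 5mC difference over the regions, 0.155 points, was -0.327 with the median over CpGs in place of the mean and ran from -0.509 to 0.527 with 1 sample left out; the cause was not tested. The 5hmC difference ran from 0.427 to 1.27. The excess of intermediate CpGs ran from 17.953 to 18.925 points with 1 sample left out, with an exact sign-flip permutation p of 0.0625, the smallest that 5 samples allow. It was 33.4 points with 25% to 75% as intermediate and 11.9 with 40% to 60%. The named tile of NNAT ranged from -1.19 to 0.11 for 5mC, above 0 without DCBQ replicate 2, and that of GRB10 from -4.68 to 1.18 for 5hmC, above 0 without control replicate 3. Replicate numbers share only a number: deviations of same-numbered samples correlated by 0.00052, 0.0061 and -0.0018 for 5mC and by -0.015, 0.0058 and -0.031 for 5hmC. With the number as a replicate block the differences were 0.155 (exact sign-flip permutation p = 1.0) and 0.772 (exact sign-flip permutation p = 0.5). With 3 same-numbered pairs that test cannot give a p as small as 0.1. The counts for tiles, CpGs and 5mC list promoters stayed at 0 with the block. No read depth accompanies the levels, so their counting error cannot be given, and groups of 3 bound what the tests can resolve.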
